A study of Mus musculus with 18 samples.

Results

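The genes described here are the interleukins, chemokines and colony-stimulating factors (CSFs), their receptors and inhibitors, and the TGF-beta group, taken as every probe set whose single gene symbol begins with Il, Ccl, Ccr, Cxcl or Cxcr and a digit, with Csf1, Csf2 or Csf3, or with Tgfb. The rule found 55 genes, each with 1 probe set, among 9636 genes with a single symbol on 10335 probe sets. They were 6 CSF genes and CSF receptors, 10 CC chemokines, 2 CXC chemokines, 5 chemokine receptors, 6 interleukins, 2 interleukin inhibitors, 18 interleukin receptors and receptor partners, and 6 genes of the TGF-beta group. Il3ra and Il1rl1, also looked for, were not analysed here.

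The study used Balb/c mice with an established myeloproliferative neoplasm (MPN), made by transplanting donor cells that were transduced with JAK2V617F and tagged with GFP. Bone marrow of several mice per experiment, which the sources used here do not say was pooled, was cultured for 16 h with IL-3 at 50 ng/mL and SCF at 100 ng/mL, and Lin-Kit+ progenitor cells were then sorted by GFP. The 6 groups were JAK2V617F+ (GFP+) cells with a TNFR2 blocking antibody (BA), with a TNFR1 BA, or Untreated, and JAK2V617F- (GFP-) cells with a TNFR2 BA, with a TNFR1 BA, or Untreated, with each BA at 10 μg/mL. The sample labels and the methods name a TNFR1 and a TNFR2 BA and were followed, although the series' design text names TNFR1 for both. Each of 3 independent experiments gave 1 array per group, but the study excluded the Untreated JAK2V617F+ array of experiment 3 for quality, so that group had 2 arrays and every other group 3, for 17 arrays in all. Arrays with the same replicate number are taken as 1 experiment, which the labels do not state. All cells had been exposed to IL-3 and SCF, JAK2V617F- cells came from the same diseased marrow as JAK2V617F+ cells, and expression of JAK2V617F was driven by a transduced construct and not by the gene's own locus.

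Cytokines of these families are secreted proteins that bind surface receptors. Interleukin and CSF receptors of the haematopoietin class signal through JAK kinases and STAT factors, IL-1 family receptors through MyD88 to NF-kB, chemokine receptors through G proteins, and TGF-beta receptors through SMAD factors. In the marrow, IL-3, GM-CSF, M-CSF and G-CSF drive the growth of myeloid progenitors, chemokines direct where blood cells move and are retained, and several of these factors are raised in patients with MPN. JAK2 is the kinase used by the IL-3 and GM-CSF receptors.

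The scale of the deposited values is not stated in the sources used. They were read as log2 signals from their range of 2.22 to 15.49, on which every difference and fold rests, and no level of a gene is set against that of another, since probe sets differ in brightness. Of the 55 genes, 11 never had a log2 signal under 4, and 15 were under 4 on at least 12 of the 17 arrays, among them Ccl4, Ccl7, Cxcl10, Cxcr2, Il13 and Tgfbi. A log2 signal of 6 or more on at least 2 arrays was reached by 45 of the 55 genes (81.8%) and by 91.4% of all probe sets. Arrays of a group differed widely. Within groups, the SD of the log2 signal had a median of 1.90 for these genes and 1.45 for all probe sets, and 41 of the 55 genes had a range of over 5 across the arrays. The table carries no detection calls, so a difference from a group that lies near 2.22 may be understated, and the number of arrays limits the precision. Medians of the 17 arrays lay between 7.41 and 7.75, and that of the excluded array was 6.05.

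**Figure D1:**
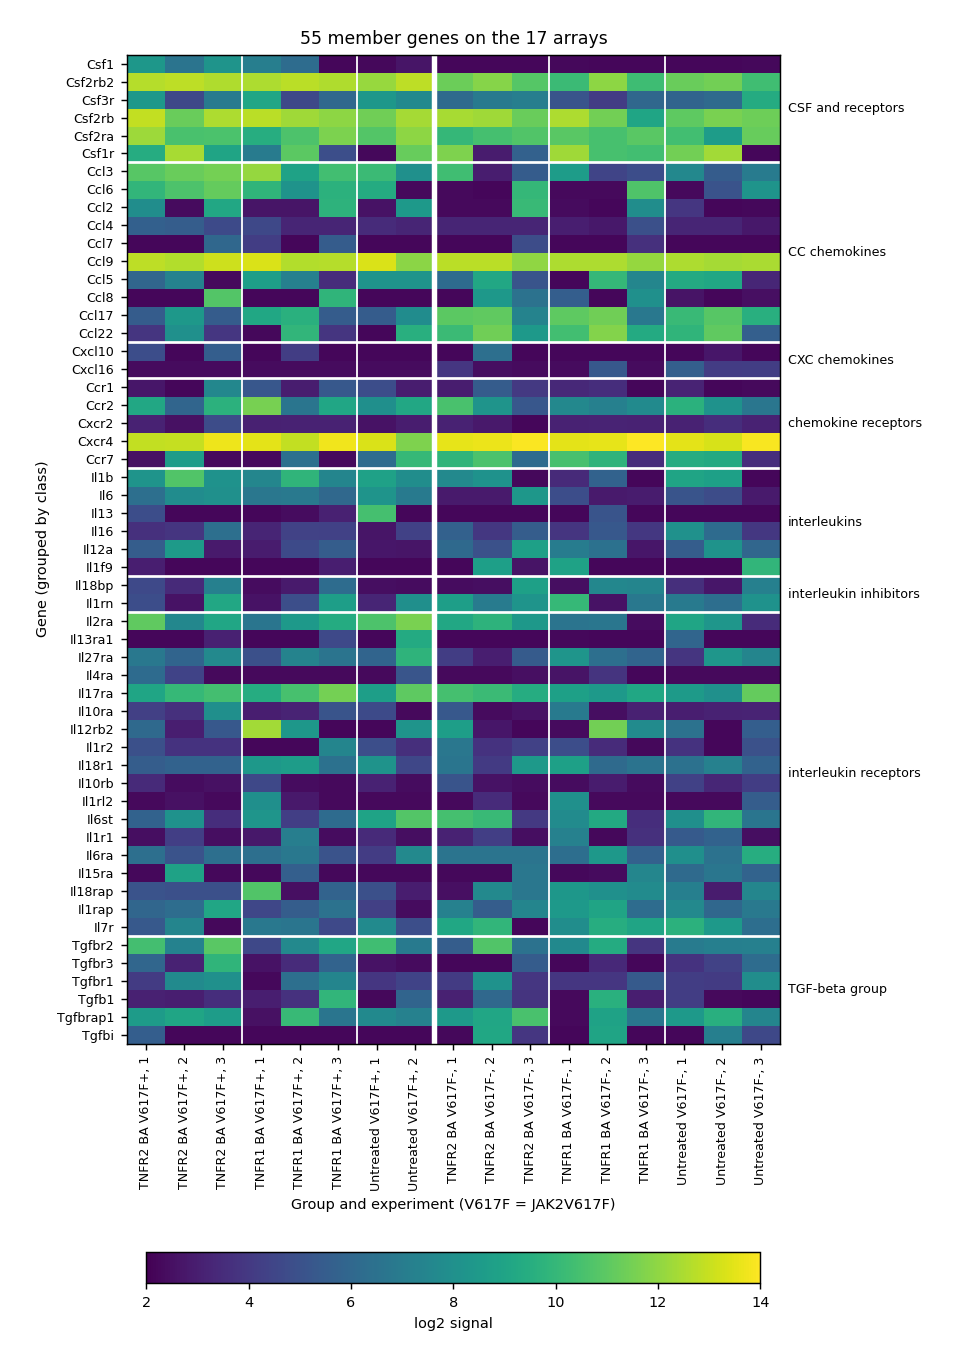
Log2 signal (colour, 2 to 14) of each of the 55 genes (rows, by class) on each of the 17 arrays (columns, by group and experiment). JAK2V617F+ arrays stand left of the thick white line and JAK2V617F- arrays right of it, and Csf2rb2, Ccl9 and Cxcr4 had a signal above 10 on every array while rows such as Csf1r and Il12rb2 changed between arrays of one group.

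The sort by Kit was checked against 11 measured markers of such progenitors. Their mean log2 signal was 8.24 to 9.51 on JAK2V617F+ arrays and 7.74 to 9.15 on JAK2V617F- arrays, and Kit itself lay between 3.71 and 9.95 over all arrays, so its signal varied widely. Over the 3 treatments, 3 of the 11 (Gata2, Tal1 and Gfi1b) were higher in JAK2V617F+ cells at an unadjusted p under 0.05 in limma, and none after adjustment. Of all probe sets, 10.3% differed in either direction at the unadjusted level and 0.358% after adjustment. Markers of some other cells also differed between the genotypes. The mean of 10 mast cell and basophil genes was 10.84 to 12.33 on JAK2V617F+ arrays and 6.49 to 8.70 on JAK2V617F- arrays. Of the 10, 7 were higher in JAK2V617F+ cells at an adjusted p under 0.05 and all 10 at an unadjusted p under 0.05. The tryptase genes Tpsab1 and Tpsb2 averaged 12.26 and 10.06 in JAK2V617F+ cells but only 3.34 and 2.81 in JAK2V617F- cells. The mean of 12 erythroid genes was 8.31 to 10.90 on JAK2V617F+ arrays and 5.80 to 8.25 on JAK2V617F- arrays. Of the 12, 3 were higher after adjustment and all 12 at an unadjusted p under 0.05. The mean of 13 monocyte, macrophage and dendritic cell genes was 6.84 to 8.86 on JAK2V617F+ arrays and 7.73 to 9.19 on JAK2V617F- arrays. Of them 1 (H2-Aa) was lower after adjustment, and 4 had a positive difference. At an unadjusted p under 0.05, 5 were lower (Mrc1, Ctss, Cd74, H2-Aa and Irf8) and none higher. The mean of 9 megakaryocyte genes was 6.58 to 9.42 and 5.95 to 7.11, with 3 higher at an unadjusted p under 0.05. For 10 neutrophil genes it was 9.57 to 12.65 and 10.63 to 12.94, with none at that level. The part of these shifts in the results below was not tested, and in sorted bulk cells a change in the share of a cell type cannot be told apart from a change in RNA per cell.

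The genotypes were compared as the mean over the 3 treatments. Csf2rb2, which encodes the IL-3-specific beta chain of the mouse IL-3 receptor, rose 2.93-fold in JAK2V617F+ cells (log2 difference 1.55, SE 0.27, limma, adjusted p = 0.0109) and was the 1 gene of the 55 past the threshold of 0.05, which 0.358% of all probe sets passed. It was also the 1 gene of the 55 whose 8 JAK2V617F+ and 9 JAK2V617F- arrays did not overlap, a pattern seen for 0.242% of all probe sets. At an unadjusted p under 0.05, 12 of the 55 genes (21.8%) differed, against 10.3% of all probe sets. Of these, 7 were higher in JAK2V617F+ cells (Csf2rb2, Csf1, Ccl3, Il6, Il1b, Il2ra and Ccl6), a direction and level that 5.21% of all probe sets met, and 5 were lower (Ccl22, Ccl17, Cxcr4, Il1rap and Cxcl16), as were 5.08% of all probe sets. The median difference was 0.21 over the 55 genes and 0.00 over all probe sets, and 30 of the 55 had a positive difference.

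The methods describe 6 groups from the marrow of each experiment and paired comparisons, so the replicate number was also fitted as a replicate block. That a number marks an experiment is not stated. Deviations of same-numbered arrays from their group means correlated weakly, by 0.008, 0.071 and 0.144 on average, against -0.033 between numbers. For 13 of the 17 arrays, the closest array of another group had the same number. With the block, 4 of the 55 genes passed the threshold, Csf2rb2 (adjusted p = 0.00284), Ccl3 (0.0134), Ccl22 (0.0128) and Ccl17 (0.0128), where 0.648% of all probe sets did. Csf2rb2 and Ccl3 were higher and Ccl22 and Ccl17 lower in JAK2V617F+ cells in all 8 comparisons of an array with its partner of the same experiment and treatment. These 8 comparisons come from 3 experiments, so here and below they are not 8 independent replications. How many of all probe sets ran in 1 direction in all 8 was not counted.

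**Figure D2:**
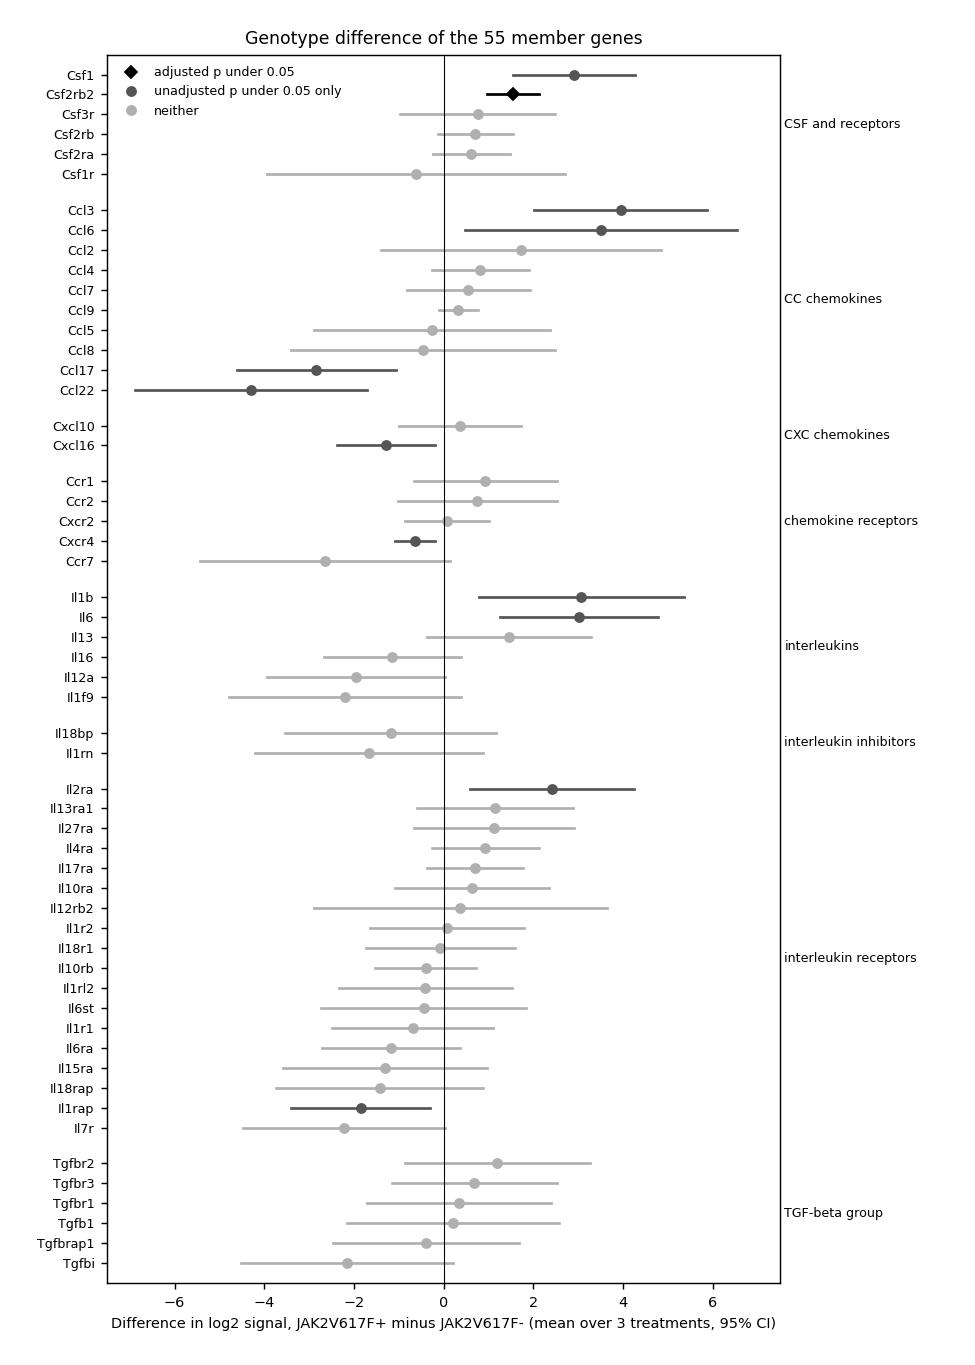
Difference in log2 signal between JAK2V617F+ and JAK2V617F- cells, averaged over treatments, for the 55 genes by class, with 95% confidence intervals from limma (17 arrays). Csf2rb2, at 1.55, is the 1 gene with an adjusted p under 0.05 (black diamond), dark grey marks 11 genes with an unadjusted p under 0.05, and intervals such as that of Csf1r, -3.93 to 2.70, span both directions.

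For 4 genes named above, the 250 bases before the annotated start site are given, because they hold the letters of a site bound by factors downstream of these receptors or of TNFR: GAS, the palindrome bound by STAT dimers, searched as TTCNNNGAA, and the NF-kB consensus. Sequences are from RefSeq (GRCm38.p6), 5′ to 3′ on the strand of the gene, and capitals mark the match. Csf2rb2 is at chr15:78305722-78305971 (minus strand) with a GAS match that ends 7 bases before the start site, Csf1 at chr3:107760470-107760719 (minus strand) with an NF-kB match ending 145 bases before it, Il6 at chr5:30012864-30013113 (plus strand) with an NF-kB match ending 35 bases before it, and Ccl17 at chr8:94810203-94810452 (plus strand) with a GAS match ending 91 bases before it.
Csf2rb2: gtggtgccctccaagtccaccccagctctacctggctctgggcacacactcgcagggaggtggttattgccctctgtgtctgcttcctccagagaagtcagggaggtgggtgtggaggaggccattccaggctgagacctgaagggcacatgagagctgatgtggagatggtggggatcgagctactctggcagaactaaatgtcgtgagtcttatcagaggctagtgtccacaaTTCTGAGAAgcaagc
Csf1: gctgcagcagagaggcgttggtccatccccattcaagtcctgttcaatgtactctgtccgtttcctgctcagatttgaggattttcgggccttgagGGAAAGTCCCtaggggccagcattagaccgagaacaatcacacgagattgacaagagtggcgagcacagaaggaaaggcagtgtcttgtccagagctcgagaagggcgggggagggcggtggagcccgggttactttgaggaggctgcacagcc
Il6: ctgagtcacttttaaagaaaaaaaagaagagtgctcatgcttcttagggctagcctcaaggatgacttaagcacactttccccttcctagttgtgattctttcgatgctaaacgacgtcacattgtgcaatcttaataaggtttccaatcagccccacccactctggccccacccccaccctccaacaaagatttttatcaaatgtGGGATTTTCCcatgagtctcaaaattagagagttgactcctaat
Ccl17: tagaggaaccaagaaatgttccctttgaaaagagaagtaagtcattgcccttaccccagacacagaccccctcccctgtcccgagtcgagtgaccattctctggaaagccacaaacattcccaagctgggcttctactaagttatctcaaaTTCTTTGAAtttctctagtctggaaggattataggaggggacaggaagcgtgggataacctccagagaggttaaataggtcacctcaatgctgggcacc
Both strands were searched. RefSeq windows were matched for 42 of the 55 genes, of which 7 held a GAS match (Ccl17, Csf2rb2, Il12rb2, Il18r1, Il1f9, Il1r2 and Il7r) and 11 an NF-kB match (Ccl9, Ccr1, Csf1, Csf3r, Cxcl10, Il16, Il1r1, Il2ra, Il6, Tgfb1 and Tgfbrap1). Of 32851 windows of all genes, 7.02% held a GAS match and 7.25% an NF-kB match. The windows of Ccl3 and Ccl22 held neither. These are matches of letters, and binding was not measured.

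Among the CSF receptors, Csf2rb2 (probe set 1449360_at) had log2 signals of 12.68, 12.79 and 12.57 in JAK2V617F+ cells with TNFR2 BA, 12.54, 12.75 and 12.56 with TNFR1 BA, and 12.16 and 12.80 Untreated. In JAK2V617F- cells it had 11.29, 11.81 and 10.83 with TNFR2 BA, 10.17, 11.96 and 10.27 with TNFR1 BA, and 11.26, 11.44 and 10.34 Untreated. Every JAK2V617F+ array was thus above every JAK2V617F- array, and the JAK2V617F+ arrays lay closer together (12.61 ± 0.21, SD, n = 8) than the JAK2V617F- arrays (11.04 ± 0.67, SD, n = 9). Within experiments the difference ranged over 0.80 to 2.37. The mast cell and basophil genes (10.84 to 12.33 on JAK2V617F+ arrays, 6.49 to 8.70 on JAK2V617F- arrays) and the erythroid genes (8.31 to 10.90, and 5.80 to 8.25) also separated these arrays, and their part in the Csf2rb2 result was not tested. The call was lost without the Untreated JAK2V617F+ array of experiment 2 (adjusted p = 0.0551), and in fits on 2 of the 3 experiments the difference was 1.30 to 1.75 with an adjusted p of 0.0849 to 0.26. It was also lost with variances without a trend (adjusted p = 0.0834) and by the methods' t-test on 8 pairs of arrays from 3 experiments (adjusted p = 0.112).

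Csf2rb, the near-identical neighbour of Csf2rb2 that encodes the beta chain shared by the receptors for IL-3, IL-5 and GM-CSF, averaged 12.18 ± 0.61 in JAK2V617F+ and 11.44 ± 1.05 in JAK2V617F- cells (SD, n = 8 and 9). Its difference was 0.71 (95% CI -0.14 to 1.55, adjusted p = 0.547), positive in 7 of 8 within-experiment comparisons. Whether the probe sets of these 2 genes each report only their own transcript was not tested, so the split between them is uncertain. Csf2ra, the ligand-binding chain of the GM-CSF receptor, had 9.49 to 12.23 on JAK2V617F+ arrays and 8.63 to 11.19 on JAK2V617F- arrays, and its interval for the difference was -0.25 to 1.49. Csf3r, the G-CSF receptor, and Csf1r, the M-CSF receptor of monocytes and macrophages, had differences of 0.76 (SE 0.82) and -0.62 (SE 1.58). Csf1r varied by about 10 log2 units within each genotype, between 2.27 and 12.41 on JAK2V617F+ arrays and between 2.23 and 12.34 on JAK2V617F- arrays, so no genotype difference could be resolved.

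Csf1 (probe set 1460220_a_at), which encodes M-CSF, was at 2.22 to 2.25 on all 9 JAK2V617F- arrays, next to the lowest value of the table. In JAK2V617F+ cells its log2 signal was 8.36, 6.61 and 8.21 with TNFR2 BA, 7.13, 6.25 and 2.22 with TNFR1 BA, and 2.28 and 2.68 Untreated. A signal above 6 was thus confined to 5 of the 6 JAK2V617F+ arrays with a BA among the 17 arrays. The genotype difference over treatments was 2.91 (SE 0.65, adjusted p = 0.0627), and it passed the threshold without the TNFR1 BA JAK2V617F+ array of experiment 3 (3.41, adjusted p = 0.00487) and with all 18 arrays (2.88, adjusted p = 0.0475). Under TNFR2 BA the difference was 5.51 (SE 1.07, adjusted p = 0.0734), and this too passed without the TNFR1 BA JAK2V617F+ array of experiment 3 (adjusted p = 0.0169) or that of experiment 1 (adjusted p = 0.0496), neither of which belongs to the groups compared, while the difference stayed at 5.51.

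**Figure D3:**
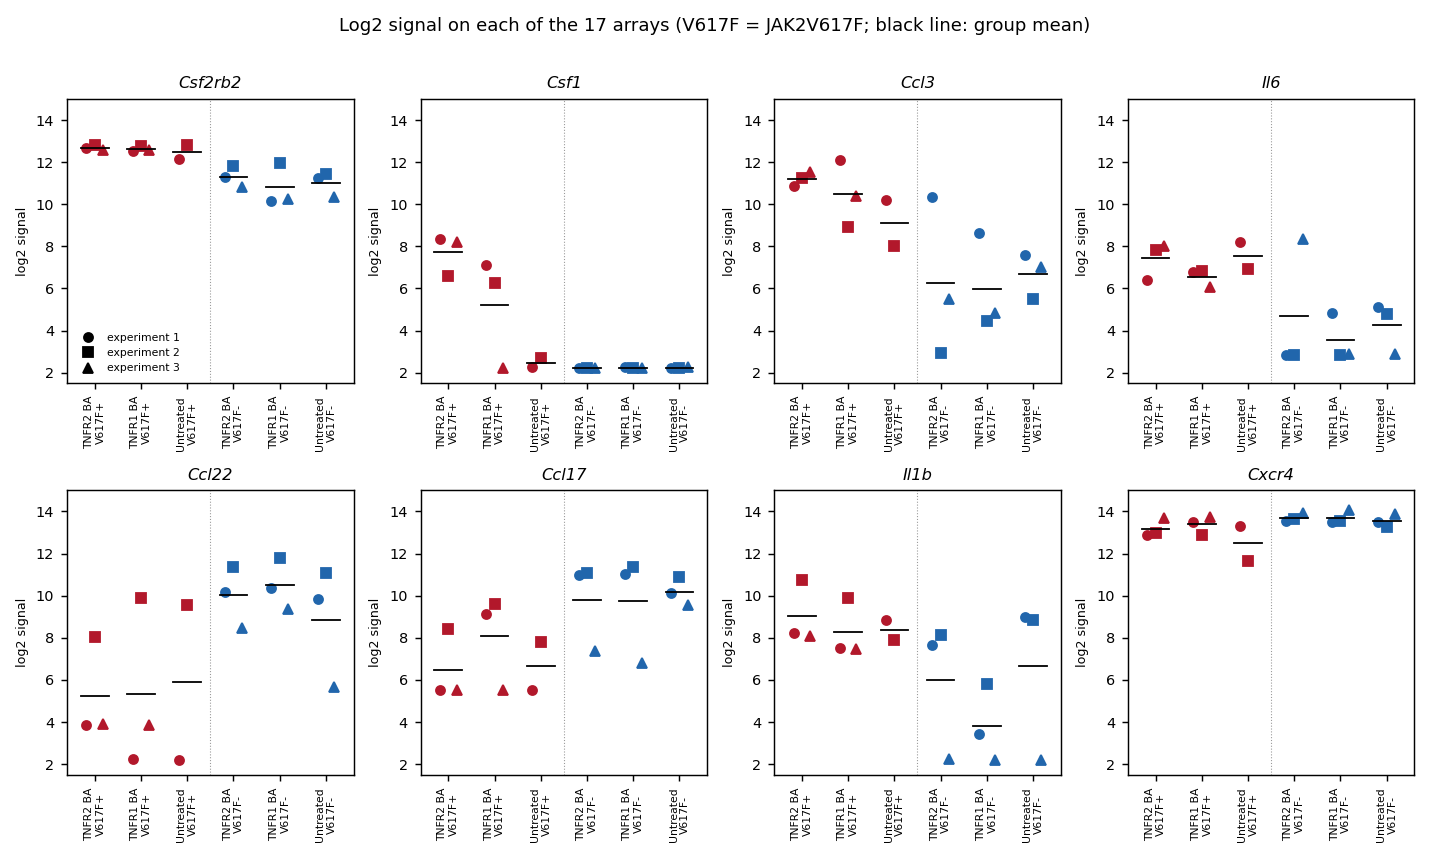
Log2 signal of 8 genes on each array, by group, with red for JAK2V617F+ and blue for JAK2V617F- cells, the marker shape for the experiment and a black line for the group mean. Csf2rb2 separated the genotypes on every array, Csf1 lay between 6.25 and 8.36 on 5 JAK2V617F+ arrays with a BA and at 2.22 to 2.68 on the other 12 arrays, and the other 6 genes overlapped.

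Of the 10 CC chemokines, limma called none without the replicate block and 3 with it (Ccl3, Ccl22 and Ccl17), where 0.358% and 0.648% of all probe sets were called. At an unadjusted p under 0.05 without the block, 2 were higher and 2 lower, against 5.21% and 5.08% of all probe sets. Ccl3 (MIP-1 alpha, probe set 1419561_at), which attracts monocytes and T cells and restrains the cycling of haematopoietic stem cells, had log2 signals of 10.87, 11.24 and 11.51 in JAK2V617F+ cells with TNFR2 BA, 12.08, 8.92 and 10.39 with TNFR1 BA, and 10.19 and 8.03 Untreated. In JAK2V617F- cells it had 10.34, 2.96 and 5.50 with TNFR2 BA, 8.63, 4.44 and 4.84 with TNFR1 BA, and 7.59, 5.50 and 7.01 Untreated. The ranges, 8.03 to 12.08 in JAK2V617F+ and 2.96 to 10.34 in JAK2V617F- cells, overlapped through the JAK2V617F- arrays of experiment 1 with a BA. Its difference was 3.95 (SE 0.92, adjusted p = 0.079), and 3.90 with the replicate block (adjusted p = 0.0134). It also passed with all 18 arrays (adjusted p = 0.0492) and without the JAK2V617F- array of experiment 1 with TNFR2 BA (0.0101) or with TNFR1 BA (0.0406).

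Ccl6, a monocyte attractant made by myeloid cells of mice, was at 8.14 to 11.16 on 7 of 8 JAK2V617F+ arrays and at 2.31 on the Untreated array of experiment 2. In JAK2V617F- cells it was at 2.22 to 5.06 in experiments 1 and 2 but at 10.00, 10.69 and 8.23 in experiment 3. The difference of 3.51 (SE 1.44, adjusted p = 0.411) was 7.41, 3.84 and 0.10 within experiments 1, 2 and 3, so it was not seen in the third. Ccl4 (MIP-1 beta), the relative of Ccl3, was at 3.25 to 5.68 on JAK2V617F+ arrays and 2.78 to 4.94 on JAK2V617F- arrays, with a difference of 0.82 (SE 0.52). Ccl9, a further macrophage inflammatory protein of mice, had the smallest spread within groups of the 55 genes (0.42), and its difference was 0.33 (95% CI -0.11 to 0.76).

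Ccl22 and Ccl17 encode the ligands of CCR4 and are products of dendritic cells and macrophages. Ccl22 (probe set 1417925_at) had log2 signals of 3.87, 8.02 and 3.89 in JAK2V617F+ cells with TNFR2 BA, 2.25, 9.90 and 3.85 with TNFR1 BA, and 2.22 and 9.55 Untreated, and 10.20, 11.38 and 8.46 in JAK2V617F- cells with TNFR2 BA, 10.35, 11.78 and 9.35 with TNFR1 BA, and 9.87, 11.05 and 5.64 Untreated. Ccl17 (probe set 1419413_at) ranged over 5.50 to 9.61 on JAK2V617F+ arrays (median 6.66) and 6.80 to 11.38 on JAK2V617F- arrays (median 10.88). In each of the 6 groups the array of experiment 2 was the highest for both genes, and the ranges of the genotypes overlapped. The difference was -4.30 for Ccl22 (SE 1.23, adjusted p = 0.196) and -2.84 for Ccl17 (SE 0.84, adjusted p = 0.217), and it was -4.59 and -3.16 with the replicate block (adjusted p = 0.0128 for each). Ccr7, the receptor with which dendritic cells and T cells home to lymph nodes, was lower in JAK2V617F+ cells in 7 of 8 within-experiment comparisons (difference -2.65, SE 1.32, adjusted p = 0.498). Beside these 3 genes, the mean of the 13 monocyte, macrophage and dendritic cell genes was 6.84 to 8.86 on JAK2V617F+ arrays and 7.73 to 9.19 on JAK2V617F- arrays. Of those 13, 5 were lower in JAK2V617F+ cells at an unadjusted p under 0.05 and none higher. Of the JAK2V617F+ arrays, the Untreated array of experiment 2 had the highest list mean (8.86) and the highest Ccr7 (10.02). The TNFR1 BA array of experiment 2, with a list mean of 7.71, had the highest Ccl22 (9.90) and Ccl17 (9.61). The part of such cells in the result was not tested.

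The remaining CC chemokines, Ccl2, Ccl5, Ccl7 and Ccl8, had differences of 1.72 (SE 1.49), -0.26 (SE 1.25), 0.55 (SE 0.66) and -0.46 (SE 1.40). Of the CXC chemokines, Cxcl16, which is also a scavenger receptor of macrophages, was at 2.34 to 2.35 on all JAK2V617F+ arrays and at 2.35 to 5.63 on JAK2V617F- arrays (difference -1.28, SE 0.52, adjusted p = 0.404). Cxcl10, the interferon-induced ligand of CXCR3, was under 4 on 5 of 8 JAK2V617F+ and 8 of 9 JAK2V617F- arrays, with a difference of 0.37 (SE 0.65).

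Cxcr4, the receptor for CXCL12 that retains progenitors in the marrow, was high on every array, at 11.66 to 13.76 on JAK2V617F+ arrays and 13.27 to 14.05 on JAK2V617F- arrays. It was lower in JAK2V617F+ cells in all 8 within-experiment comparisons (-1.62 to -0.01), and the fitted difference was -0.64 (SE 0.21, adjusted p = 0.303). Without the Untreated JAK2V617F+ array of experiment 1, the difference was -0.92 (adjusted p = 0.025), since the array left in that group, at 11.66, was the lowest of the 17 and is assumed in that fit to vary like the other groups. That setting called 119 of all probe sets, against 37 with all 17 arrays. Ccr1 and Ccr2, inflammatory chemokine receptors of myeloid cells, had differences of 0.93 (SE 0.76) and 0.75 (SE 0.85), and Cxcr2, the neutrophil receptor for CXC chemokines, had 0.07 (SE 0.45) and was under 4 on 16 of 17 arrays.

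Of the interleukins, Il6, a pleiotropic cytokine that acts through gp130, had 6.07 to 8.19 on JAK2V617F+ arrays (median 6.88) and 2.85 to 8.34 on JAK2V617F- arrays (median 2.89). A single JAK2V617F- array, with TNFR2 BA in experiment 3, lay above 5.14, and without it the difference was 3.63 (adjusted p = 0.0241), against 3.02 over all arrays (SE 0.84, adjusted p = 0.176). Il1b, the secreted IL-1 beta of activated myeloid cells, had 7.47 to 10.76 on JAK2V617F+ arrays and 2.22 to 9.0 on JAK2V617F- arrays. All 3 JAK2V617F- arrays of experiment 3 were at 2.22 to 2.24, and the difference was 1.51, 1.93 and 5.56 within experiments 1, 2 and 3 (fitted 3.07, SE 1.09, adjusted p = 0.328). It was positive in the 6 comparisons of arrays with a BA and negative in both Untreated ones (-0.14 and -0.93). The excluded array was at 3.13 for Il1b, and with all 18 arrays the difference was 2.49.

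Il12a, a subunit of IL-12 and IL-35, had a difference of -1.95 (SE 0.94, adjusted p = 0.49), with ranges of 2.67 to 8.54 on JAK2V617F+ and 2.73 to 8.81 on JAK2V617F- arrays. Il13, a type 2 cytokine also made by mast cells and basophils, was under 4 on 6 of 8 JAK2V617F+ and 8 of 9 JAK2V617F- arrays, with 10.45 on the Untreated JAK2V617F+ array of experiment 1, and its difference was 1.46 (SE 0.87) over all arrays but -0.31 without experiment 1. Il1f9, which encodes IL-36 gamma, was at 2.22 to 3.01 on JAK2V617F+ arrays and reached 8.76, 8.92 and 9.89 on 3 JAK2V617F- arrays of different experiments and treatments (difference -2.20, SE 1.23, adjusted p = 0.544). Il16 had -1.14 (SE 0.73). The inhibitors Il1rn, the IL-1 receptor antagonist, and Il18bp, which binds IL-18, had differences of -1.67 (SE 1.21) and -1.17 (SE 1.12).

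Among the 18 interleukin receptors and partners, 1 was higher and 1 lower in JAK2V617F+ cells at an unadjusted p under 0.05, which is close to the 10.3% of all probe sets, and 8 of 18 had a positive difference. Il2ra (CD25), the alpha chain of the IL-2 receptor, had 6.67 to 11.60 on JAK2V617F+ arrays and 2.39 to 9.76 on JAK2V617F- arrays, a difference of 2.42 (SE 0.87, adjusted p = 0.33) that was positive in 7 of 8 within-experiment comparisons. Il1rap, the accessory chain needed for signalling by IL-1 and IL-33, had 2.39 to 9.10 on JAK2V617F+ arrays and 5.55 to 9.0 on JAK2V617F- arrays, a difference of -1.85 (SE 0.74, adjusted p = 0.40), negative in 5 of 8 comparisons. Within experiments 1, 2 and 3 it was -2.86, -2.12 and 0.94, so experiment 3 ran the other way. With all 18 arrays the differences of Il2ra and Il1rap were 1.79 and -1.25.

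Il7r, the lymphoid IL-7 receptor, was lower in 7 of 8 within-experiment comparisons, with a difference of -2.23 (95% CI -4.48 to 0.03, adjusted p = 0.489). Beside it, the mean of 5 T and NK cell genes, 3 of them lower at an unadjusted p under 0.05, was 4.67 to 6.83 on JAK2V617F+ arrays and 5.61 to 8.29 on JAK2V617F- arrays, and that of 7 B cell genes, 1 of them lower, was 2.52 to 4.38 on JAK2V617F+ arrays and 2.35 to 7.10 on JAK2V617F- arrays. The part of such cells was not tested. Il4ra, the shared IL-4 and IL-13 receptor chain, was at or under 3.82 on all JAK2V617F- arrays and reached 6.21, 4.41 and 5.15 on 3 JAK2V617F+ arrays (difference 0.93, SE 0.57). Il6ra, the IL-6 receptor, and Il6st, the shared chain gp130, had differences of -1.17 (SE 0.73) and -0.45 (SE 1.09). Il17ra, the IL-17 receptor, was at 8.71 to 11.50 on JAK2V617F+ and 8.01 to 11.18 on JAK2V617F- arrays (difference 0.70), and Il13ra1 had a difference of 1.14. The 10 further receptors (Il10ra, Il10rb, Il12rb2, Il15ra, Il18r1, Il18rap, Il1r1, Il1r2, Il1rl2 and Il27ra) had differences between -1.43 and 1.11 with standard errors of 0.53 to 1.56.

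In the TGF-beta group, none of 6 genes passed limma's threshold and none had an unadjusted p under 0.05, and the replicate block and the methods' t-test also called none. Tgfbr1 and Tgfbr2, the signalling receptors, had differences of 0.34 (SE 0.97) and 1.20 (SE 0.98), and Tgfbr3, the co-receptor betaglycan, had 0.68 (SE 0.87). Tgfb1, the ligand linked to marrow fibrosis, was under 4 on 12 of 17 arrays and had 0.21 (SE 1.12). Tgfbrap1, a protein that binds TGF-beta receptors, had -0.40. Tgfbi, a matrix protein induced by TGF-beta, was at 2.22 on 7 of 8 JAK2V617F+ arrays and at 5.61 on the other, and on JAK2V617F- arrays it ranged over 2.22 to 9.17 (difference -2.16, SE 1.12, adjusted p = 0.511).

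Within single treatments limma called none of the 55 genes at an adjusted p under 0.05. Of all probe sets, 0.0774% (Untreated), 0.0871% (TNFR1 BA) and 0.0387% (TNFR2 BA) passed. The methods' t-test also called none, but it had at most 3 pairs of arrays here. After adjustment over all probe sets it could hardly call any gene, so no conclusion is drawn from it. At an unadjusted p under 0.05, 9 of the 55 genes differed between genotypes in Untreated cells against 7.32% of all probe sets, 6 under TNFR1 BA against 6.21%, and 7 under TNFR2 BA against 5.63%. Csf2rb2 was among them each time, with 1.47 (SE 0.51), 1.82 (SE 0.45) and 1.37 (SE 0.45). In Untreated cells the other 8 were Il2ra (4.18), Il13 (4.12) and Il6 (3.29), which were higher in JAK2V617F+ cells, and Il12a (-3.84), Ccl17 (-3.53), Il1rap (-3.52), Cxcl16 (-2.30) and Cxcr4 (-1.07), which were lower. Under TNFR1 BA they were Ccl3 (4.50), Il1b (4.48), Il6 (3.03), Csf1 (2.97) and Ccl22 (-5.16), and under TNFR2 BA they were Ccl6 (5.73), Csf1 (5.51), Ccl3 (4.94), Ccl4 (2.05), Ccl17 (-3.34) and Ccl22 (-4.75). Single arrays changed these calls. Without the TNFR1 BA JAK2V617F- array of experiment 2, Csf2rb2 passed under TNFR1 BA (2.40, adjusted p = 0.0371), without the Untreated JAK2V617F+ array of experiment 1 Cxcr4 (-1.90, adjusted p = 0.0219) and Il13ra1 passed in Untreated cells, and without that of experiment 2 Il13 did. The last 2 fits leave 1 Untreated JAK2V617F+ array, which is assumed to vary like the other groups, and the fit without experiment 1's array called 171 of all probe sets, against 8 with all 17 arrays. With the replicate block, 10 of the 55 genes reached an unadjusted p under 0.05 under TNFR1 BA, against 7.4% of all probe sets.

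The BAs were compared with Untreated cells of the same genotype, both against the same Untreated arrays. In JAK2V617F+ cells limma called none of the 55 genes for TNFR2 BA, where 0.029% of all probe sets passed, and none for TNFR1 BA, where 0.00968% did. The methods' t-test called none either, but with so few pairs of arrays it could hardly do so. At an unadjusted p under 0.05 there were 4 genes for TNFR2 BA against 5.26% of all probe sets, and 3 for TNFR1 BA against 6.78%. Csf1 had the smallest p of the 55 genes under TNFR2 BA in limma, 5.25 above Untreated (95% CI 2.72 to 7.77, unadjusted p = 0.000387, adjusted p = 0.40). It was 2.72 above Untreated under TNFR1 BA (95% CI 0.19 to 5.25, adjusted p = 0.705). The fit pools the spread of all groups. The SD of Csf1 was 2.62 with TNFR1 BA in JAK2V617F+ cells but 0.00109 to 0.0181 in the JAK2V617F- groups. Its intervals that involve those TNFR1 BA arrays may thus be too narrow. With TNFR2 BA, Il1rap was at 5.95, 6.28 and 9.10 against 4.28 and 2.39 Untreated, a difference of 3.78 (SE 1.37). Tgfbr3 was at 5.97, 3.16 and 9.87 against 2.57 and 2.34 Untreated, a difference of 3.88 (SE 1.63). Both were thus higher on each BA array than on the Untreated arrays used. The excluded Untreated array was at 8.68 for Il1rap, within the range of the BA arrays, and at 2.23 for Tgfbr3.

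The other members at this level rested on 1 Untreated array each. Il13ra1, a receptor chain for IL-13, was at 2.22, 2.22 and 3.12 with TNFR2 BA and at 2.22 and 9.33 Untreated (difference -3.26, SE 1.54), and Il13 was at 2.22, 2.38 and 3.11 with TNFR1 BA and at 10.45 and 2.22 Untreated (difference -3.77, SE 1.62). Without the high array the difference was 0.30 for Il13ra1 and 0.35 for Il13, so both directions turned round. Without the Untreated JAK2V617F+ array of experiment 1, Il13ra1 under TNFR2 BA was at -6.82 (adjusted p = 0.0364). Cxcr4 was 0.90 higher with TNFR1 BA (SE 0.40), and 1.73 higher (adjusted p = 0.0401) without that same array. Both of these fits rest on 1 remaining Untreated array, assumed to vary like the other groups, and they called 55 of all probe sets for TNFR2 BA and 132 for TNFR1 BA, against 3 and 1 with all 17 arrays.

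In JAK2V617F- cells limma called none of the 55 genes under either BA (0.0% of all probe sets each). None had an unadjusted p under 0.05, which 2.47% of all probe sets had for TNFR2 BA and 3.73% for TNFR1 BA. The methods' t-test called none, but with so few pairs of arrays it could hardly do so. The genes with the smallest p were Cxcl16 for TNFR2 BA (-1.75, 95% CI -3.56 to 0.07), followed by Il27ra (-2.32), Il2ra (2.17) and Ccl8 (3.28), and Il1b for TNFR1 BA (-2.88, 95% CI -6.69 to 0.93), followed by Il10rb (-1.37), Tgfbrap1 (-2.53) and Cxcl16 (-1.31). Intervals of this width leave differences of several log2 units unresolved.

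**Figure D4:**
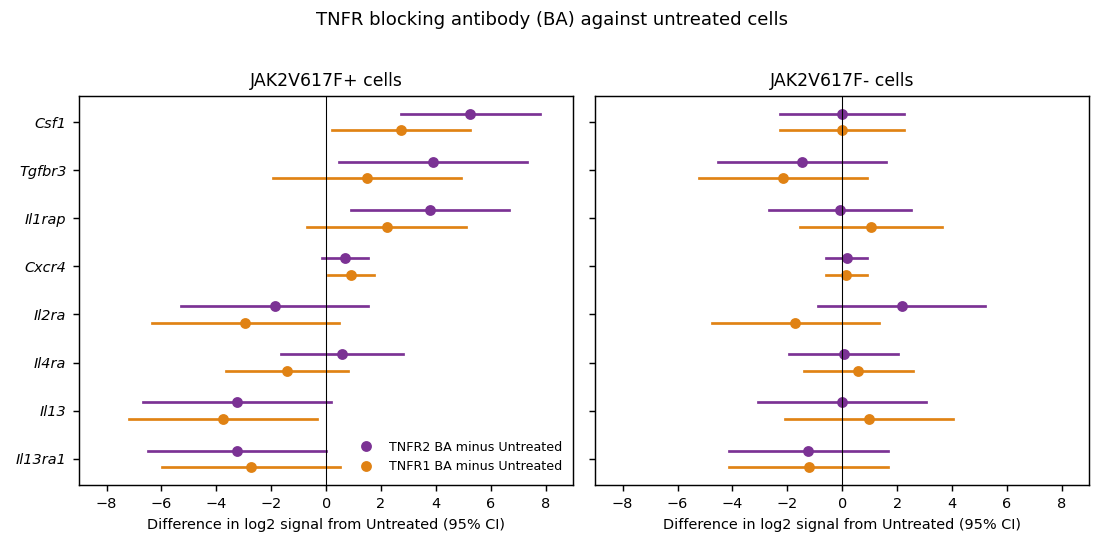
Difference in log2 signal of TNFR2 BA (purple) and TNFR1 BA (orange) from Untreated cells, with 95% confidence intervals from limma, for the 8 genes with an unadjusted p under 0.05 in any BA comparison, in JAK2V617F+ cells (left) and JAK2V617F- cells (right). Csf1 under TNFR2 BA in JAK2V617F+ cells, at 5.25, stands farthest from 0, its values in JAK2V617F- cells lie at 0, and both BAs share the Untreated arrays.

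TNFR2 BA was set against TNFR1 BA directly. No gene of the 55 passed limma's threshold in either genotype (0.0% of all probe sets each). None passed with the methods' t-test, which could hardly call any with so few pairs of arrays. In JAK2V617F+ cells Csf1 was 2.53 higher with TNFR2 BA (95% CI 0.27 to 4.79, adjusted p = 1) and Il4ra 2.0 higher (95% CI 0.02 to 3.99), 2 genes at an unadjusted p under 0.05 against 4.37% of all probe sets, and the next were Ccl4 (1.60) and Tgfbr3 (2.39). The Csf1 difference lay mostly in experiment 3, where the signal was 8.21 with TNFR2 BA and 2.22 with TNFR1 BA, against 8.36 and 7.13 in experiment 1 and 6.61 and 6.25 in experiment 2. In JAK2V617F- cells Il2ra was 3.87 higher with TNFR2 BA (95% CI 0.83 to 6.92), 1 gene against 3.70% of all probe sets, at 9.19, 9.76 and 8.39 with TNFR2 BA and 6.63, 6.71 and 2.39 with TNFR1 BA. The next by p were Tgfbrap1 (3.40), Il27ra (-2.62) and Csf1r (-4.29).

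The difference between genotypes in the effect of a BA was tested as an interaction, JAK2V617F+ minus JAK2V617F-. No gene of the 55 passed limma's threshold for either BA (0.0% of all probe sets each), with or without the replicate block. For TNFR2 BA, 2 genes had an unadjusted p under 0.05 against 3.83% of all probe sets, Csf1 (5.26, 95% CI 1.87 to 8.65, unadjusted p = 0.00441, adjusted p = 0.997) and Tgfbr3 (5.34, 95% CI 0.74 to 9.93), and Il1rap (3.87) and Il2ra (-4.04) came next. For TNFR1 BA it was Il13 alone against 5.22% of all probe sets (-4.74, 95% CI -9.32 to -0.15), which rests on the Untreated JAK2V617F+ array of experiment 1, with Csf1 (2.72), Tgfbr3 (3.66) and Ccr7 (-4.96) next.

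Several of these genes differed widely between experiments. Ccl8, Ccl2 and Ccl7, which encode related monocyte chemoattractants, averaged 7.53, 7.85 and 4.43 over the 5 arrays of experiment 3, against 2.85, 3.62 and 2.55 in experiment 1 and 3.25, 3.37 and 2.22 in experiment 2. Ccl8 was at 6 or more on 4 of 5 arrays of experiment 3, and on 0 and 1 of 6 arrays of experiments 1 and 2. Those 4 arrays of experiment 3 all had a BA. The Untreated JAK2V617F- array of experiment 3 was low, at 2.47 for Ccl8, 2.24 for Ccl2 and 2.22 for Ccl7. The excluded Untreated array was at 2.22, 2.67 and 3.14. The part of the BAs in this pattern was not tested. Ccl6 and Il18bp were also highest in experiment 3, where Il18bp was at 6.23 to 8.84 on every array. Ccr7, Il6st, Il1b and Ccl5 ran the other way, with means of 3.59, 4.81, 4.45 and 4.34 in experiment 3, against 6.81, 8.20, 7.44 and 6.78 in experiment 1 and 9.13, 8.74, 8.54 and 8.51 in experiment 2. These genes were picked for that pattern, so it is a description, and experiment 3 holds 2 JAK2V617F+ and 3 JAK2V617F- arrays while the others hold 3 of each.

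**Figure D5:**
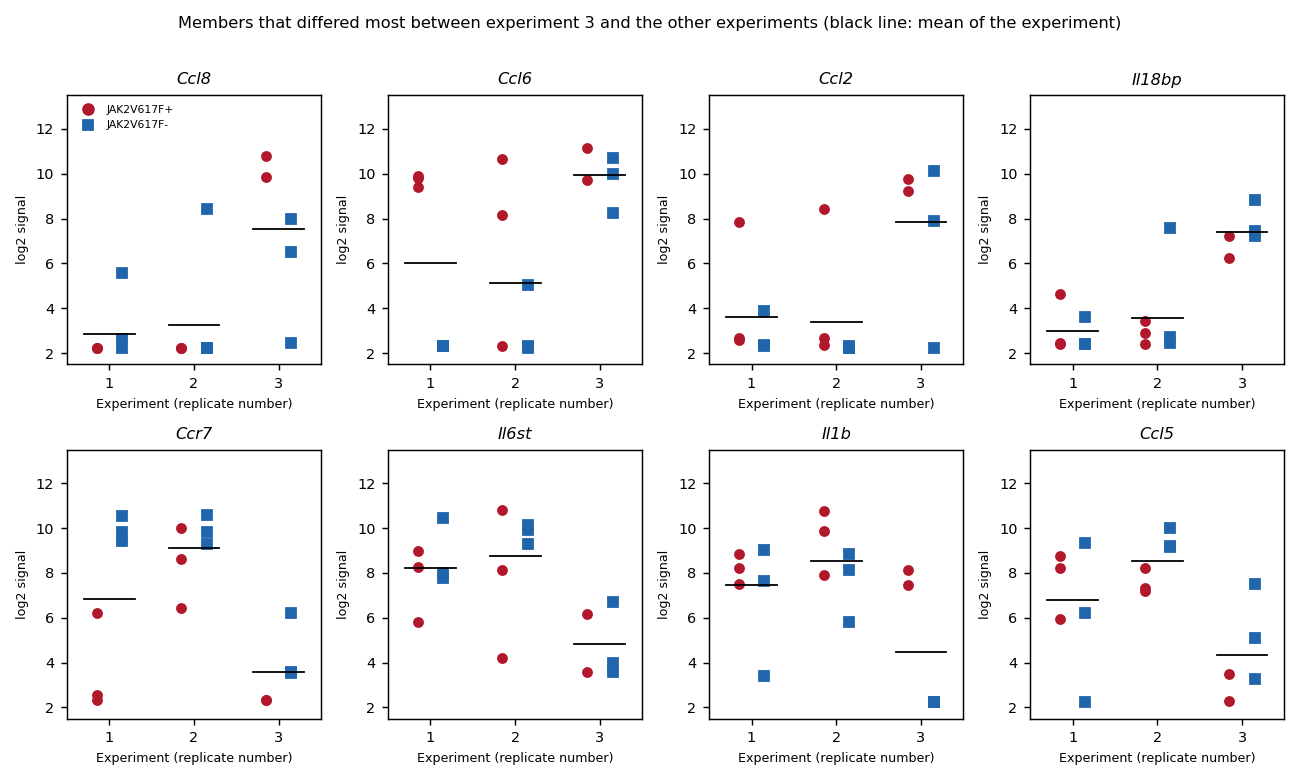
Log2 signal of 8 genes by experiment, with red circles for JAK2V617F+ and blue squares for JAK2V617F- arrays and a black line for the mean of the experiment. Ccl8, Ccl6, Ccl2 and Il18bp (top) were highest in experiment 3, with means of 7.40 to 9.96, and Ccr7, Il6st, Il1b and Ccl5 (bottom) lowest there, with means of 3.59 to 4.81.

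Genes that act with these families were counted from lists over the same genotype comparison, in which 10.3% of all probe sets had an unadjusted p under 0.05 and 0.358% passed after adjustment. Of 30 JAK-STAT genes, limma called none, and 1 had an unadjusted p under 0.05 (Stat3, difference -1.78, SE 0.61). Stat3 averaged 2.22 in JAK2V617F+ cells, the lowest value of the table, and 3.99 in JAK2V617F- cells, so its signal was low in both genotypes. Among the 30 genes Jak2 had a difference of 0.66 (SE 0.65), Stat5a 1.27 (SE 0.73) and the STAT5 target Cish 0.56 (SE 0.32). Of 17 genes of IL-1 and Toll receptor signalling 1 had an unadjusted p under 0.05 (Tab1, 2.06), of 19 of TGF-beta signalling 3 (Acvr1b 2.46, Acvr2a -3.59 and Ltbp3 1.54), and of 22 of chemokine receptor signalling 2 (Pik3r5 -2.07 and Pf4 1.77), with none passing after adjustment. Of these pathway lists, TGF-beta signalling alone had a share above that of all probe sets, and no list was tested as a set. Among 22 other cytokines and cytokine receptors, 2 were higher and 2 lower at an unadjusted p under 0.05, also a share above that of all probe sets. Only Lif, an IL-6 family cytokine that signals through gp130, passed after adjustment. It rose in JAK2V617F+ cells by 7.17 (SE 0.68, limma, adjusted p = 1.04e-05), averaging 9.88 in JAK2V617F+ and 2.72 in JAK2V617F- cells. At an unadjusted p under 0.05 alone, Epor (2.61) was higher, and Crlf3 (-2.07) and Ifngr1 (-0.81) were lower. The targets of the BAs, Tnfrsf1a (TNFR1) and Tnfrsf1b (TNFR2), had differences of 0.29 (SE 0.47) and -0.08 (SE 0.42).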

How the data were processed

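The authors hybridised amplified, biotin-labelled RNA to Affymetrix mouse expression arrays, processed the scans in Expression Console and deposited a table of signals, read here as log2 from their range, for 10335 probe sets. The sources used here do not give its normalization or filter, and no raw scans or detection calls were used. Of the probe sets, 657 have no symbol and 27 several.

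All 17 arrays entered 1 linear model of 6 groups in limma 3.58.1 (R 4.3.3) with intensity-trended variances. Benjamini-Hochberg adjustment ran over all probe sets, with a threshold of 0.05. The fit was tested on simulated data. The 12 comparisons were genotype over and within treatments, each BA against Untreated, BA against BA, and interactions. Arrays of a replicate number were taken as 1 experiment, from the methods' account of 6 groups per experiment, not from a label. Their deviations correlated by 0.008, 0.071 and 0.144 on average in experiments 1, 2 and 3, against -0.033 between experiments.

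Genes were named as the first 20 by p for the genotype comparison and the first 4 for each other comparison, plus 14 chosen for their known roles, and the remainder were added after their values were seen so that every gene is accounted for. Members and lists were chosen with earlier results of these data known. Alternatives were the replicate block, all 18 arrays, variances without a trend, array weights, leaving out dim probe sets, quantile normalization, a fit on only the groups compared, the methods' t-test and leaving out arrays or experiments. The methods' t-test was paired here by replicate number, where the paper describes pairs of cells from individual mice.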

Additional observations from a re-analysis of the deposited data

Results flagged for a closer look

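The Untreated JAK2V617F+ array of experiment 3 was excluded by the study and entered only the fits with all 18 arrays. It had 3 genes more than 1 log2 unit above all 17 other arrays. Il12rb2, a chain of the IL-12 receptor, was at 13.72 (highest other array 12.35), Il1rn at 11.19 (10.03) and Cxcr2 at 6.23 (4.77). That array had the lowest median signal of the 18, and the cause of these values was not tested.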

How the results depend on the processing

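For genotype over treatments, 1 gene of the 55 passed the threshold, against 4 with the replicate block, 3 with all 18 arrays, 0 with variances without a trend, 0 with the methods' t-test (12 at an unadjusted p under 0.05 in both of these) and 0 to 2 when an array or experiment was left out. Csf2rb2 had an adjusted p of 0.0834 without the trend and 0.112 by the methods' t-test. Leaving out arrays gave 0 to 2 genes for genotype in Untreated cells and for TNFR1 BA in JAK2V617F+ cells, 0 to 1 for genotype under each BA and for TNFR2 BA in JAK2V617F+ cells, and 0 elsewhere. Over all probe sets it gave 6 to 119 calls for genotype over treatments and 0 to 171 in Untreated cells. The replicate block changed no other call on the 55 genes.

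Of 74 gene results under 28 settings, 20 values in 11 results changed sign, none of them of a called difference and all when arrays were left out. With an array or experiment left out, genotype over treatments ran over -0.31 to 3.33 for Il13, -3.14 to 2.60 for Csf1r, -0.37 to 1.40 for Csf3r, -1.57 to 0.21 for Il6st, -2.82 to 0.39 for Il1rn, -1.09 to 0.99 for Tgfb1, -0.0466 to 2.97 for Tgfbr2, -0.15 to 1.33 for Ccr2 and -0.0138 to 0.87 for Tgfbr1. In JAK2V617F+ cells, TNFR1 BA ran over -7.89 to 0.53 for Il13 and TNFR2 BA over -6.82 to 0.45 for Il13ra1. The cause was not tested. Another probe set per gene could not be tried, since each gene has 1, and the methods' t-test was not run for interactions. Low signals near 2.22 limit what the arrays can resolve.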
